A study of Mus musculus with 4 samples.

Results

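Transcription factor genes known from naive and memory T cells, 10 in number, were examined in Th17-polarised CD4+ T cells lacking miR-155. They were chosen by symbol as named on the array: Tcf7, Lef1, Foxp1, Foxo1, Bach2, Klf2, Satb1, Id2, Id3 and Klf4. All 10 were tested, of 19792 genes tested and 27528 gene or transcript names on the array, and together they had 18 probes, each present as 1 spot per array. The study compared 2 arrays of miR-155-/- (miR155 knockout) cells with 2 arrays of miR-155+/+ (wild-type, WT) cells, all of them CD4+ and positive for a red fluorescent reporter (RFP) of IL-17F. Cells of both genotypes had been cultured in serum-containing medium with antibodies to CD3e and CD28, TGF-beta and IL-6, which direct Th17 differentiation, and were then sorted. The series' title names IL-23 responsiveness and effector gene expression of Th17 cells as its subjects. The labels give genotype only, with no strain, age or sex, and nothing ties an array to an animal or culture beyond the design text's term biological replicates, so p-values measure the spread between these arrays, part of which may be technical.

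Naive T cells are kept quiescent and recirculating by a small set of transcription factors. TCF1 (the product of Tcf7) and LEF1 are HMG-box proteins that work with beta-catenin and with Groucho corepressors. FOXO1 is a forkhead factor that PI3K and AKT signalling expels from the nucleus, and it maintains expression of the IL-7 receptor and of KLF2, a zinc-finger factor that in turn drives the lymph node exit receptor S1PR1. FOXP1 restrains naive T cells from leaving quiescence, BACH2 represses effector genes by competing with AP-1 factors, and SATB1 organises chromatin. ID2 and ID3 bind E proteins and keep them off DNA. Many of these genes are turned down when T cells are activated, and lymphocytes make miR-155, a microRNA, from the Bic transcript once activated.

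Sites for the microRNA in the members' transcripts were not examined here. Sequences of the microRNA and of a member's probes are given below. The first is the mature microRNA that the knockout cells lack, with its seed (bases 2 to 8), which pairs with target transcripts, in capitals, from RefSeq on GRCm38.p6 at chr16:84714143-84714165, plus strand. The others are 3 of the 5 probes of Foxp1, the member whose probes disagreed, given 5′ to 3′ in the sense of the transcript and in order along it. Each is 60 bases long and has at least 1 reading frame without an internal stop, but their place in the coding sequence was not checked against an annotation. The capitals in the last one mark the stop codon at the end of its open frame. On mm9 and the minus strand, the upstream probe lies at chr6:99112925-99112984, the middle one spans an intron at chr6:98885382-98889719, and the downstream one lies at chr6:98880084-98880143.
mmu-miR-155-5p: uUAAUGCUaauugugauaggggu
Foxp1 upstream: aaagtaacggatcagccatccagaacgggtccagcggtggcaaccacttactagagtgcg
Foxp1 middle: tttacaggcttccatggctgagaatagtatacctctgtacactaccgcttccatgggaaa
Foxp1 downstream: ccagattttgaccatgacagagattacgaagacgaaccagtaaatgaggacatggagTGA

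Signals are given as log2 processed intensity minus the 75th percentile of the same array, a scale on which different probes cannot be set against each other, and each gene is given by its brightest tested probe unless stated. Differences are log2 knockout minus wild type from limma, with standard errors (SE). The share of spots well above background ran from 63.5% to 69.8% over the arrays, with 0 saturated spots. On knockout array 1 the fitted multiplicative surface, by which the software divides signals to even out an array, had an SD of 0.157 and had not been applied, against SDs of 0.0498 to 0.0557 on the other arrays, where it had. None of the 18 probes lay in the corner blocks at the right edge where that array was dimmest. miR-155 itself was not analysed here, so the genotypes rest on the labels. Il17f, the reporter gene, was at 1.52 and 1.92 in knockout cells and at 3.68 and 3.78 in wild-type cells. Mrpl39, which neighbours the miR-155 locus and does not check the deletion, was at 1.42 and 1.65 in knockout cells and at 2.66 and 2.73 in wild-type cells.

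Tcf7, Foxp1, Bach2 and Lef1 had lower signals in the knockout cells, and the other 6 genes had values within the spread of the arrays. The 4 lower genes were at 63.4%, 66.0%, 69.2% and 70.9% of the wild-type signal. The Lef1 value came from a dim part of knockout array 1, and its difference was -0.09 with that array divided by its surface. These 4 genes were the only members whose arrays of the 2 genotypes did not overlap and the only ones with an unadjusted p under 0.05, 4 of 10 by either measure, all lower, against 0 of 10 higher. Over all genes tested, 4.04% were lower and 7.05% higher at that p, 22.6% were lower without overlap of the genotypes, and 47.8% did not overlap in either direction. 0 of 10 members passed the threshold over all probes, since limma with Benjamini-Hochberg adjustment called 0 of 26139 probes at 0.05 (0% of probes and of genes), the lowest adjusted value being 0.304. In either direction, 11.1% of genes had an unadjusted p under 0.05. With 2 arrays per genotype the lowest two-sided p of an exact permutation test is 0.333. The members' median difference was -0.15, against 0.01 for all genes, and their median absolute difference was 0.21, against 0.18. In RNA of a sorted population, fewer cells of a kind and less RNA per cell cannot be told apart.

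**Figure D1:**
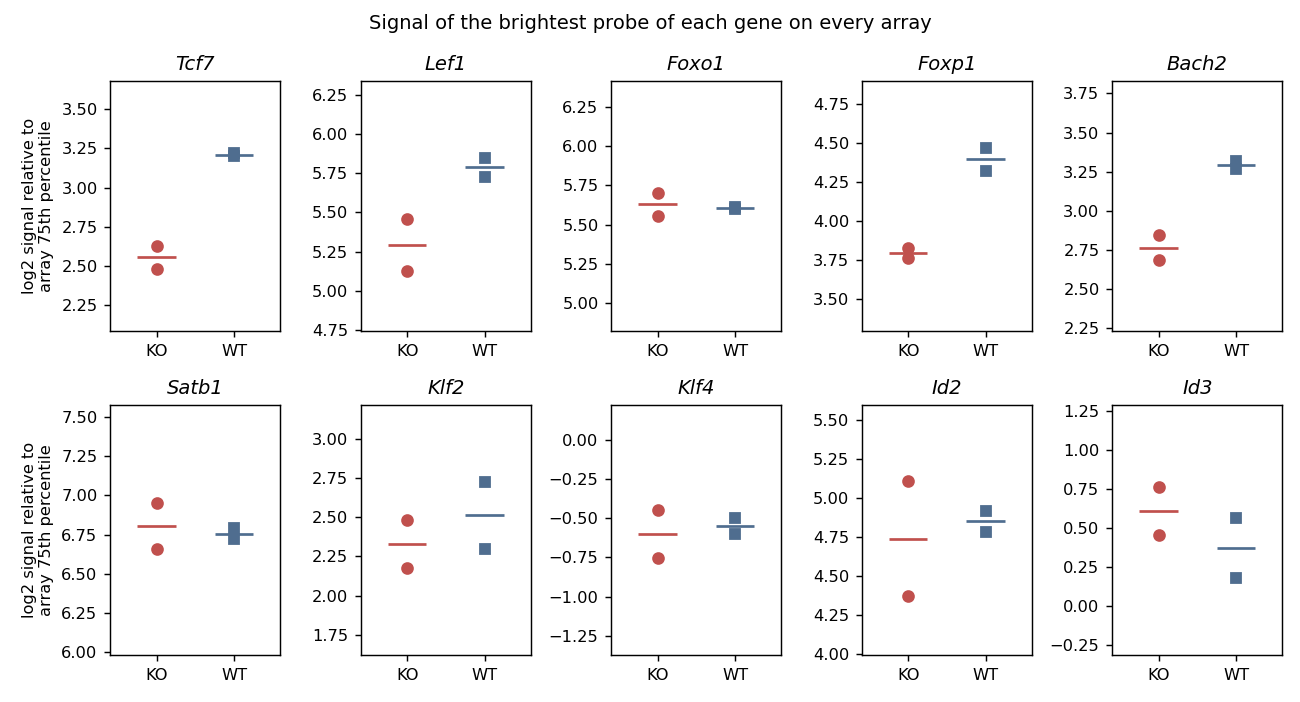
Signal of the brightest probe of each of the 10 genes on every array, as log2 intensity relative to the array's 75th percentile (y axes have the same length but different centres). Circles are the 2 knockout (KO) arrays, squares the 2 wild-type (WT) arrays and lines their means, and the genotypes separate for Tcf7, Lef1, Foxp1 and Bach2 but overlap for the other 6 genes.

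Tcf7 encodes TCF1, which naive, memory and stem-like T cells hold at high levels. Its brightest probe, at mm9 chr11:52066114-52066173, was at 2.48 and 2.63 in knockout cells and at 3.22 and 3.20 in wild-type cells. Both knockout arrays were lower than both wild-type arrays, by at least 0.57. The difference was -0.66 ± 0.13 (SE), with a 95% interval of -1.002 to -0.311, an unadjusted p of 0.00595 and a limma adjusted p of 0.336. The other Tcf7 probe, at chr11:52066738-52066797, was at -0.14 and 0.06 in knockout cells and at 0.60 and 0.79 in wild-type cells. Its difference was -0.74 ± 0.15 (SE), so the probes differed by less than their errors. Over the genes tested, 3.54% had a lower difference than that of the brightest Tcf7 probe.

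Lef1, the closest relative of Tcf7, gave a less certain result. Its brightest probe, at mm9 chr3:130926200-130926259, was at 5.13 and 5.46 in knockout cells and at 5.73 and 5.85 in wild-type cells. The knockout arrays were both lower, with a difference of -0.50 ± 0.17 (SE) and an unadjusted p of 0.0398. That spot lay where the fitted surface of knockout array 1 was 0.553, against 0.916 to 0.962 on the other 3 arrays, so its signal there was read in a dim part of the array. With knockout array 1 divided by its surface the difference was -0.09, with an unadjusted p of 0.699, and without that array it was -0.33. The other Lef1 probe spans chr3:130907851-130926012 and lay where the surface was 1.06 on that array. It was at 4.34 and 4.02 in knockout cells and at 4.42 and 4.68 in wild-type cells, a difference of -0.37 ± 0.18 (SE) with an unadjusted p of 0.110. This second probe kept the knockout arrays below the wild-type arrays, by 0.08 at the nearest, and its difference was -0.43 with the array divided by its surface.

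Foxo1, one of the 2 forkhead genes, had 2 probes that gave nearly the same value and no separation of the genotypes. Its brightest probe, at mm9 chr3:52150183-52150242, was at 5.70 and 5.56 in knockout cells and at 5.61 and 5.60 in wild-type cells. The wild-type arrays lay between the knockout arrays. The difference was 0.02 ± 0.12 (SE), with a 95% interval of -0.32 to 0.36, and that of the other probe was 0.03 ± 0.13 (SE). FOXO1 is controlled mainly through its location in the cell, which RNA does not show.

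Foxp1 gave values that differed between its 5 probes. The downstream probe printed above, the brightest of the 5, was at 3.76 and 3.83 in knockout cells and at 4.32 and 4.47 in wild-type cells. Both knockout arrays were lower, with a difference of -0.60 ± 0.13 (SE), an unadjusted p of 0.00851 and a limma adjusted p of 0.350. The middle probe was at 2.07 and 1.97 in knockout cells and at 2.47 and 2.57 in wild-type cells, a difference of -0.50 ± 0.13 (SE). It lay in the same direction as the downstream probe, and the surface of knockout array 1 was 0.997 at the downstream and 1.17 at the middle probe. The upstream probe went the other way, at -2.02 and -1.83 in knockout cells and at -2.23 and -2.31 in wild-type cells. There both knockout arrays were higher, with a difference of 0.35 ± 0.13 (SE), a 95% interval of -0.02 to 0.72 and an unadjusted p of 0.0606. That difference was 0.19 with median scaling, 0.25 with quantile scaling and 0.31 with normexp background correction. Median scaling put the median of all genes at -0.15.

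The remaining Foxp1 probes fell between these. The probe at mm9 chr6:99102053-99102112, in order the second, had a difference of 0.04 ± 0.23 (SE) and was well above background on 1 of 2 knockout arrays and on 2 of 2 wild-type arrays. The next probe, at chr6:98956679-98956738, was at 0.59 and 0.57 in knockout cells and at 0.76 and 0.86 in wild-type cells, a difference of -0.24 ± 0.12 (SE). From upstream to downstream the differences were thus 0.35, 0.04, -0.24, -0.50 and -0.60, over 232841 bases of the genome between the first and the last probe. A comparison within each array is free of a constant shift of that array, but not of a shift that varies with signal level. The downstream probe exceeded the upstream probe by 5.78 and 5.66 in knockout cells and by 6.55 and 6.78 in wild-type cells, and these gaps did not overlap. The brightest probe's gaps to the probes at chr6:99102053-99102112 and chr6:98956679-98956738 did not overlap either, while its gap to the middle probe did. All of these gaps share the brightest probe and are not independent. Among all probes, 47.2% did not overlap between the genotypes, and no such share was computed for gaps. The upstream probe and the one at chr6:99102053-99102112 gave the lowest signals of the 5. Whether a shift that varies with signal level contributed to the gaps was not tested. Of the 5019 genes with several tested probes, 40.1% had probes of both signs, and the median range of differences within such a gene was 0.21, against 0.95 for Foxp1. The upstream probe was annotated to transcript variant 2 and the middle and downstream ones to variant 1, and which isoforms these cells made was not tested. The mean over the 5 probes gave Foxp1 a difference of -0.19, with an unadjusted p of 0.181.

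**Figure D2:**
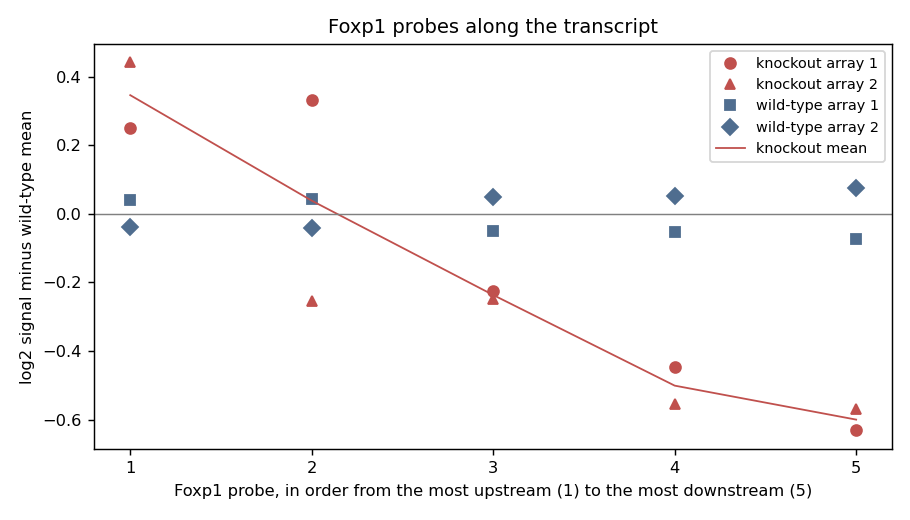
Log2 signal of each of the 5 Foxp1 probes minus its wild-type mean, with the probes in order from the most upstream to the most downstream on the x axis. Red symbols are the 2 knockout arrays, with a line through their means from 0.35 down to -0.60, and blue symbols are the 2 wild-type arrays, which stay within 0.075 of their mean.

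Bach2 encodes a repressor that keeps lymphocytes from effector fates. Its brightest probe, at mm9 chr4:32673009-32673068, was at 2.84 and 2.68 in knockout cells and at 3.27 and 3.32 in wild-type cells. The knockout arrays were both lower by at least 0.43, with a difference of -0.53 ± 0.13 (SE), an unadjusted p of 0.0133 and a limma adjusted p of 0.364. The other Bach2 probe, at chr4:32588782-32588841, was at 0.52 and -0.12 in knockout cells and at 0.33 and 0.66 in wild-type cells. Its genotypes overlapped, with a difference of -0.30 ± 0.28 (SE) in the same direction. Bach2 was lower than wild type by its brightest probe whichever array was left out, at -0.61 to -0.45. Its relative Bach1, a repressor of haem-responsive genes and a reported miR-155 target, was at 0.86 and 0.88 in knockout cells and at 0.47 and 0.31 in wild-type cells. Bach1 thus lay in the opposite direction, at 0.48 ± 0.13 (SE) with an unadjusted p of 0.0180.

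Satb1 encodes a chromatin organiser of developing and naive T cells. Its probe, at mm9 chr17:51879137-51879196, was at 6.95 and 6.66 in knockout cells and at 6.72 and 6.79 in wild-type cells. The wild-type arrays lay between the knockout arrays, and the difference was 0.05 ± 0.15 (SE), with a 95% interval of -0.37 to 0.47.

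The Krüppel-like factors showed no separation between genotypes. Klf2 maintains recirculation of naive T cells, and its probe, at mm9 chr8:74845137-74845196, was at 2.17 and 2.48 in knockout cells and at 2.30 and 2.73 in wild-type cells. The arrays were interleaved, with a difference of -0.19 ± 0.22 (SE) and a 95% interval of -0.78 to 0.40. Klf4, an inhibitor of T cell proliferation, has its probe at chr4:55540167-55540226. It was at -0.45 and -0.75 in knockout cells and at -0.60 and -0.50 in wild-type cells. Its difference was -0.05 ± 0.16 (SE), with a 95% interval of -0.49 to 0.39.

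The Id genes, which encode inhibitors of E proteins, also overlapped. Id2 accompanies effector differentiation, and its probe, at mm9 chr12:25778904-25778963, was at 5.11 and 4.37 in knockout cells and at 4.92 and 4.78 in wild-type cells. The 2 knockout arrays differed by 0.73, the widest replicate gap among the brightest probes of the 10 genes. The difference of -0.11 ± 0.28 (SE) had a 95% interval of -0.89 to 0.67. Without knockout array 1 it was -0.48 and without knockout array 2 it was 0.26, so the sign rested on single arrays. Id3, which is associated with naive and long-lived memory cells, has a probe spanning chr4:135700075-135700249. It was at 0.45 and 0.76 in knockout cells and at 0.18 and 0.56 in wild-type cells, and the arrays were interleaved. The difference was 0.24 ± 0.21 (SE), the highest among the brightest probes of the 10 genes, with a 95% interval of -0.33 to 0.80.

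**Figure D3:**
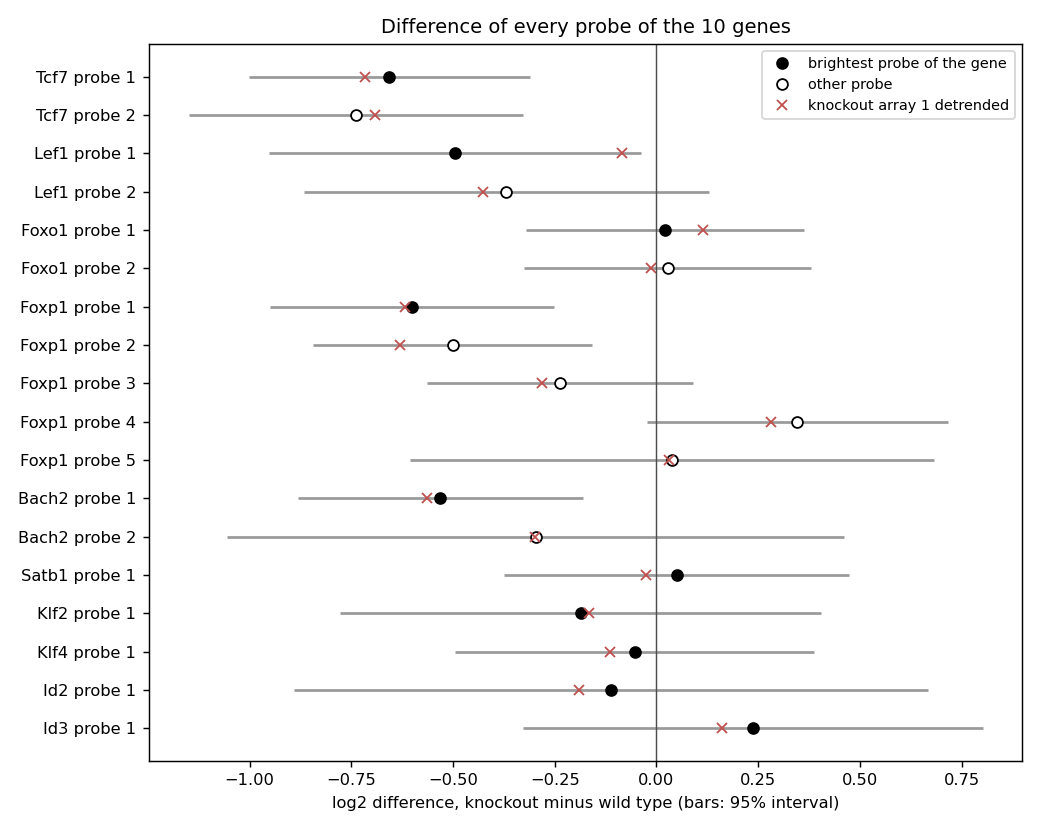
Log2 difference, knockout minus wild type, of all 18 probes of the 10 genes, with 95% intervals from limma (filled circles for the brightest probe of a gene, open circles for others). Red crosses give the difference with knockout array 1 divided by its fitted surface, which moved the first Lef1 probe from -0.50 to -0.09 and the others by much less.

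Across all probes of the members, 12 were lower and 6 higher. The genotypes did not overlap for 9 of the 18, 8 of them lower, against 47.2% of all probes in either direction and 22.2% lower. Of the 18, 6 were lower at an unadjusted p under 0.05, namely both Tcf7 probes, 2 of Foxp1 and 1 each of Bach2 and Lef1, against 4.04% of all probes, and 0 were higher. Probes of 1 gene share their transcript and are not independent. The count of lower members also depended on single arrays, as did that of all genes, and both are given at the end. The fits without an array have 1 residual degree of freedom less. In them the brightest probes stayed lower, at -0.73 to -0.58 for Tcf7, -0.67 to -0.53 for Foxp1, -0.61 to -0.45 for Bach2 and -0.66 to -0.33 for Lef1. With knockout array 1 divided by its surface the count of lower members at an unadjusted p under 0.05 was 3. Over all genes 1051 were then lower at that p, instead of 799. Tcf7, Foxp1 and Bach2 stayed below an unadjusted p of 0.05 there, at 0.00721, 0.00763 and 0.00798.

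Relatives of the 10 factors were read from a list of 25 family members, of which 21 were tested. Their median difference was -0.11, with values below 0 for 14 and above 0 for 7. At an unadjusted p under 0.05 there were 3 lower relatives and 1 higher one, Bach1, against 4.04% and 7.05% of all genes. The 3 lower genes were all Krüppel-like factors, a family that makes up most of the tested relatives and has other genes with values above 0. Klf8 was at -1.90 and -2.25 in knockout cells and at -1.13 and -1.07 in wild-type cells, a difference of -0.98 ± 0.17 (SE). Klf10, which TGF-beta induces, had a difference of -0.58 ± 0.14 (SE), and Klf11, its close relative, of -0.61 ± 0.21 (SE). The forkhead relatives Foxp4 and Foxo3 had differences of -0.37 and 0.31 by their brightest probes. Other Foxp4 probes went up to 0.30, and the other Foxo3 probe was at 0.01. The TCF genes Tcf7l1 and Tcf7l2 had differences of -0.00051 and -0.06. These last 4 were named after their values were seen. Foxp2, Klf15 and Id4 were among the relatives too dim in both genotypes to be tested.

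Other transcription factors of naive and memory T cells had values on both sides of 0. Over 16 tested genes, 7 above 0 and 9 below, the median was -0.05. An unadjusted p under 0.05 was reached by 3 higher genes and 0 lower ones, against 7.05% and 4.04% of all genes. Foxj1, a forkhead factor associated with T cell quiescence, was at -1.02 and -0.93 in knockout cells and at -1.74 and -1.88 in wild-type cells, a difference of 0.83 ± 0.13 (SE). Eomes, a T-box factor of memory and cytotoxic cells, had a difference of 1.05 ± 0.30 (SE). Gfi1, a repressor that Th2 cells use for expansion, had a difference of 0.50 ± 0.15 (SE).

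Cofactors of TCF1 and LEF1 were close to all genes, with a median of 0.03 over 15 tested genes. An unadjusted p under 0.05 was reached by 2 higher genes and 1 lower gene, against 7.05% and 4.04% of all genes. Tle1, a Groucho corepressor, had a difference of -0.83 ± 0.19 (SE) by its brightest probe, but its 4 probes ranged from -0.83 to 0.075. Tle6, another gene of that family, had a difference of 0.39 ± 0.12 (SE), and Jup, the gene of gamma-catenin, of 1.01 ± 0.25 (SE) at a dim signal. Ctnnb1, which encodes beta-catenin itself, had a difference of -0.10 ± 0.14 (SE). Ctnnb1 lies outside the rule for named genes and was chosen after its values were seen.

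Genes upstream of FOXO1 also lay near all genes, with a median of 0.05 over 12 tested. One, Inpp5d, passed an unadjusted p of 0.05, against 11.1% of all genes in either direction. It encodes the phosphatase SHIP1, which limits PI3K signals and is a reported miR-155 target, and was higher at 0.49 ± 0.13 (SE). The kinase gene Akt1 had a difference of 0.06 and was named after its value was seen.

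Target genes of FOXO1 and KLF2 had values in both directions. Their median was -0.05 over 16 tested genes, 12 below 0 and 4 above. An unadjusted p under 0.05 was reached by 5 lower genes and 1 higher gene, against 4.04% and 7.05% of all genes. Il7r, the IL-7 receptor chain that FOXO1 maintains, was the higher one, at 5.51 and 5.53 in knockout cells and at 5.02 and 5.03 in wild-type cells. Its difference was 0.49 ± 0.11 (SE). The lower genes with the smallest p were Txnip, an inhibitor of thioredoxin, at -0.45 ± 0.11 (SE), Btla, an inhibitory receptor, at -0.51 ± 0.13 (SE), Il6ra, the IL-6 receptor chain, at -0.40 ± 0.13 (SE), and Irs2, a signalling adaptor, at -0.50 ± 0.16 (SE). The fifth was S1pr1, the exit receptor driven by KLF2, at -0.49 ± 0.17 (SE). The homing receptor gene Ccr7 had a difference of -0.01 ± 0.16 (SE). S1pr1 and Ccr7 were named after their values were seen.

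Naive T cell markers had a median of -0.23 over 14 tested genes, with 11 lower and 3 higher. An unadjusted p under 0.05 was reached by 2 lower genes and 0 higher ones, against 4.04% and 7.05% of all genes. Cd27, a costimulatory receptor of naive and memory cells, was at 2.10 and 2.06 in knockout cells and at 2.54 and 2.61 in wild-type cells, a difference of -0.49 ± 0.12 (SE). Nsg2 had a difference of -0.78 ± 0.27 (SE). The list's median was -0.11 without wild-type array 2.

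Genes that BACH2 is known to hold down in T cells mostly had higher signals. Of 14 tested, 13 had higher values by their brightest probes and 1 a lower one, with a median of 0.44. Over all genes, 10321 of 19792 had higher values. Fosl2, counted as higher at 0.24, had another probe at -2.04, and was named after its values were seen. An unadjusted p under 0.05 was reached by 6 higher genes of the list and 0 lower ones, against 7.05% and 4.04% of all genes. By their brightest probes 10 were higher without overlap of the genotypes, against 25.2% of all genes. The list was chosen with earlier results of these data known, so these counts are not a test of BACH2 targets. Prdm1, which encodes the effector factor BLIMP1, was at 1.32 and 1.095 in knockout cells and at 0.36 and 0.01 in wild-type cells. Both knockout arrays were higher, with a difference of 1.02 ± 0.18 (SE) and an unadjusted p of 0.00466. Gata3, the Th2 factor, had a difference of 1.248 ± 0.399 (SE), and the granzyme genes Gzmb and Gzma of 1.51 ± 0.12 and 1.22 ± 0.36 (SE). Granzymes make up 2 of the 14. Of 8 tested markers of CD8 T cells, NK cells and gamma-delta T cells, 4 had higher and 4 lower values, which are given below. The median of the BACH2 list was 0.25 to 0.57 with 1 array left out.

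**Figure D4:**
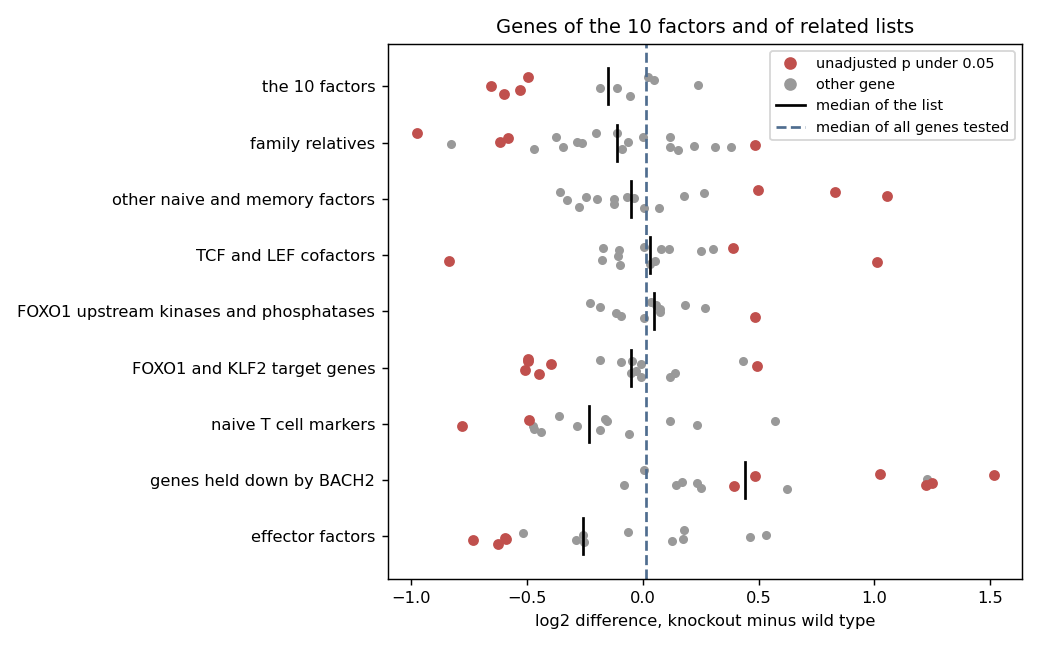
Log2 difference, knockout minus wild type, of each tested gene in the list of the 10 factors and in 8 related lists, 1 row per list. Red points have an unadjusted p under 0.05, black bars are list medians and the dashed line is the median of all genes tested at 0.01, with the BACH2 list at 0.44 and the naive markers at -0.23.

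Effector transcription factors had a median of -0.26 over 14 tested, with 9 lower and 5 higher. An unadjusted p under 0.05 was reached by 4 lower genes and 0 higher ones, against 4.04% and 7.05% of all genes. Among them, Ahr, the aryl hydrocarbon receptor gene, had a difference of -0.73 ± 0.17 (SE), Rora, a nuclear receptor gene of Th17 cells, of -0.59 ± 0.19 (SE) and Myc of -0.60 ± 0.19 (SE).

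Markers of T cells and of other cells were set beside these values. Summed signals, on the linear scale and relative to each array's 75th percentile, were 522 and 544 in knockout cells and 549 and 590 in wild-type cells for the 7 pan T cell genes, Cd3e, Cd3d, Cd3g and Cd4 included. Differences in that list ran between -0.20 for Cd5 and 0.26 for Cd247, and 0 of 7 had an unadjusted p under 0.05. For the 5 Th17 genes they were 11.3 and 10.8 in knockout cells and 29.2 and 31.2 in wild-type cells, and all 5 had lower signals with an unadjusted p under 0.05. Their differences put Il17a at -3.17, Il23r at -3.11, Ccr6 at -2.40 and Il17f at -2.01. For markers of CD8 T cells, NK cells and gamma-delta T cells, 8 of 10 were tested, and their sum was 13.9 and 17.2 in knockout cells and 17.4 and 20.8 in wild-type cells. Within that list 4 genes had higher values and 4 had lower ones, the lowest at -0.47. The genotypes did not overlap for 6 of the 8, 4 higher and 2 lower, against 47.8% of all genes. An unadjusted p under 0.05 was reached by 4 higher genes and 0 lower ones, against 7.05% and 4.04% of all genes. Klra8 was at 1.66, Cd8a at 1.30, Fcer1g at 0.94 and Eomes at 1.05. Ncr1 and Klrb1c were too dim to be tested. B cell markers summed to 4.44 and 4.87 in knockout cells and to 3.99 and 3.004 in wild-type cells over 6 of 7 genes, Cd79b being higher and Cd22 and Ebf1 lower at that p, with Cd79b and Cd22 in the corner blocks, and Ms4a1 was not tested. Myeloid markers summed to 18.98 and 19.43 in knockout cells and to 18.1 and 17.8 in wild-type cells over 7 genes, with 0 at an unadjusted p under 0.05 and differences between -0.67 for Cd14 and 0.85 for Itgax. Granulocyte, mast and erythroid markers had 3 of 7 genes tested, with S100a8, S100a9 and Cpa3 among those too dim, and summed to 0.353 and 0.278 in knockout cells and to 0.225 and 0.306 in wild-type cells, with differences between 0.03 for Mpo and 0.39 for Camp. The part of these differences in the values of the 10 factors was not tested.

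**Figure D5:**
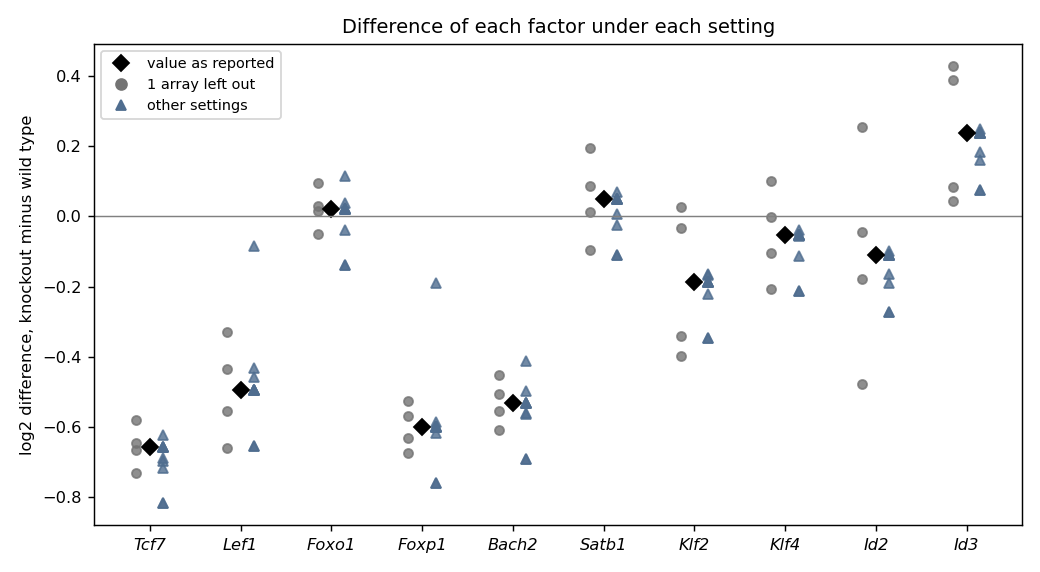
Log2 difference, knockout minus wild type, of the 10 factors as reported (black diamonds), with 1 array left out (grey circles) and under the other settings (blue triangles). Tcf7, Lef1, Foxp1 and Bach2 stay below 0 under all 15 settings, Id3 stays above 0 under them, and the values of the other 5 lie on both sides of 0.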

How the data were processed

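Agilent Feature Extraction 10.5.1.1 is named in the submitters' processing notes. The scanner tables the authors deposited, 1 for each array, hold a background-subtracted intensity on a linear scale, per the file headers, which was also detrended on 3 of the 4 arrays. The fitted multiplicative surface is a linear ratio, per the file headers. The authors' deposited matrix of log2 values differed from log2 processed signal by 1 constant per array, within 0.001 for every probe compared, with a median of 5.54 in each column, so its scale and direction were settled.

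Outlier and control spots were dropped, replicate spots averaged on the log2 scale, and each array shifted by its 75th percentile over non-control probes. Names are those in the files. The fit omitted 16194 lincRNA-region probes and 2706 probes with no name. Testing required a probe to be well above background on 2 of 2 arrays in either genotype. Knockout and wild type were compared over 26139 probes with limma 3.58.1 in R 4.3.3 (2 residual and 2.12 prior degrees of freedom) and Benjamini-Hochberg adjustment. The fit was tested on simulated data. The 4 arrays, 2 per genotype, limit the precision.

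The members and lists were chosen with earlier results of these data known. Named genes were the 10 members, in each other list up to 4 genes per direction with the smallest unadjusted p under 0.05 (with none, the highest and lowest difference), and Il17f and Mrpl39; exceptions are stated, and some genes of the lists are counted but not reported by name here. Alternatives covered scaling, background correction, the deposited matrix, filters, a replicate block, left-out arrays, detrending, probe averaging and array regions.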

Additional observations from a re-analysis of the deposited data

How the results depend on the processing

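No member passed the adjusted threshold under any of the 15 settings. Tcf7, Lef1, Foxp1, Bach2 and Id3 kept their direction under all of them, and Tcf7 had an unadjusted p under 0.05 in 15, Foxp1 in 13, Bach2 in 12 and Lef1 in 10. With 1 array left out, the ranges were -0.73 to -0.58 for Tcf7, -0.66 to -0.33 for Lef1, -0.67 to -0.53 for Foxp1, -0.61 to -0.45 for Bach2, -0.051 to 0.094 for Foxo1, -0.40 to 0.026 for Klf2, -0.10 to 0.19 for Satb1, -0.48 to 0.26 for Id2, 0.04 to 0.43 for Id3 and -0.21 to 0.10 for Klf4. Median scaling and the deposited matrix, which is scaled by the median, moved all genes to -0.15, Foxo1 to -0.14 and Satb1 to -0.11. Foxo1 was at -0.038 with normexp and Satb1 at -0.025 with knockout array 1 detrended. The cause of these reversals, other than the shift, was not tested.

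With median scaling and the deposited matrix the members' median was -0.31, and list medians were -0.27 (relatives), -0.21 (other naive factors), -0.13 (TCF cofactors), -0.11 (FOXO1 upstream), -0.21 (FOXO1 and KLF2 targets), -0.39 (naive markers), 0.28 (BACH2) and -0.42 (effector factors), to be read against -0.15. At an unadjusted p under 0.05, 737 genes were then higher and 2207 lower, instead of 1396 and 799, so 25% of them were higher instead of 63.6%, and quantile scaling gave 51.5%. normexp gave 3253 higher genes, and medians of -0.11 (FOXO1 and KLF2 targets) and -0.21 (effector factors). Relatives were at -0.063 without a filter and -0.20 with knockout array 1 detrended. Effector factors were at -0.16 with that array detrended, -0.20 with probes averaged and -0.16 without the corner blocks. Averaging probes left 2 lower members at an unadjusted p under 0.05, Tcf7 and Lef1. Bach2 was then at -0.41, with a limma unadjusted p of 0.0945, and Foxp1 at -0.19. With 1 array left out, 0 to 116 genes passed the adjusted threshold (24 without wild-type array 1, 116 without knockout array 2), 1003 to 1642 genes were higher and 355 to 1049 lower at the unadjusted p, and 1 to 4 members were lower. Medians then ran from -0.27 to -0.090 (members), -0.22 to -0.13 (relatives), -0.11 to -0.05 (other naive factors), -0.12 to 0.12 (TCF cofactors), -0.021 to 0.12 (FOXO1 upstream), -0.16 to -0.092 (FOXO1 and KLF2 targets), -0.38 to -0.11 (naive markers), 0.25 to 0.57 (BACH2) and -0.36 to -0.078 (effector factors). The replicate block left 4 lower members and 511 lower genes. Deviations of same-numbered arrays correlated at 0.021, and whether such arrays shared a batch was not tested. Fitting lincRNA-region and unnamed probes as well, chosen after seeing the data, kept 4 lower members.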
